A study of Homo sapiens with 18 samples.

Results

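The integrin subunits of the fibronectin, collagen and vitronectin receptors were followed in the mRNA of 3 head and neck squamous cell carcinoma (HNSCC) lines with and without hepatocyte growth factor (HGF). The set was fixed by gene symbol and holds ITGA1, ITGA2, ITGA3, ITGA5, ITGAV, ITGB1, ITGB3, ITGB5, ITGB6 and ITGB8. All 10 were found among the 19901 genes of the count table, and 9 passed the filter on low counts. ITGB3 did not pass it, and it is described by its counts alone. The study asked how HGF and its receptor Met change tumor cell metabolism in Detroit 562, FaDu and SCC-9, and mRNA sequencing showed which genes responded. Detroit 562 came from a metastatic site of a pharyngeal tumor, FaDu from a hypopharyngeal tumor and SCC-9 from a tumor of the tongue.

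In each line, 3 libraries came from untreated control cells and 3 from cells given 50 ng/mL HGF, which makes 6 groups and 18 libraries. The sample records and the methods give 16 h of treatment, whereas the series record gives 48 h, and 16 h is taken here. No genotype was altered in any group, and all cells were detached with trypsin before lysis. Each line is a single established culture that was used in repeated experiments, so p-values measure the spread between these repeats and not between tumors. SCC-9 was grown in another medium than the other lines, with hydrocortisone, so line and medium cannot be told apart in a comparison between lines. Differences between lines or treatments in the share of cells that express a gene and in the mRNA per cell cannot be told apart in such bulk samples either.

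An integrin is a dimer of 1 alpha and 1 beta subunit that spans the membrane, binds the matrix outside and connects to talin, kindlin and actin inside. Beta 1 (ITGB1) pairs with alpha 1 and alpha 2 to bind collagens, with alpha 5 to bind fibronectin and with alpha 3 to bind mainly laminins. The name of the set therefore fits alpha 3 least by its known ligand. Alpha v (ITGAV) pairs with beta 1 and with beta 3, beta 5, beta 6 and beta 8. Beta 3 and beta 5 are known from receptors of vitronectin, and the dimers with beta 6 and beta 8 bind latent TGF-beta. In squamous epithelium alpha 2 beta 1 and alpha 3 beta 1 are the usual beta 1 integrins, while alpha 5 beta 1 and alpha v beta 6 are known to appear in wounds and carcinomas.

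Squamous epithelial markers were abundant in every line. The 8 markers (EPCAM, CDH1, KRT5, KRT14, KRT17, KRT6A, TP63 and SFN) summed to between 2507 and 11556 CPM (counts scaled to the effective library size) over the 18 libraries. In Detroit 562 they summed to 3502 to 4839 CPM in control and 2507 to 3853 CPM with HGF. The 5 leukocyte markers summed to 20.3 to 65.7 CPM, mostly from CD68, a lysosomal protein that tumor cells also make. In Detroit 562 they summed to 20.3 to 40.6 CPM in control and 37.4 to 56.3 CPM with HGF, and CD68 was called higher there (log2 fold change 0.66, adjusted p = 0.041 by edgeR) and, with the replicate block, in FaDu (0.51, adjusted p = 0.00164). The 5 endothelial and platelet markers summed to 0.487 to 8.41 CPM. The 6 fibroblast markers summed to 17.5 to 21.7 CPM in control and 11.2 to 11.7 CPM in HGF-treated Detroit 562, to 3.60 to 6.86 CPM over FaDu and to 53.4 to 89.0 CPM over SCC-9 libraries, and PDGFRB was at 0 in all libraries of Detroit 562. Their part in the integrin results was not tested. As a check of the HGF stimulus, 10 ERK feedback genes, which are induced by growth factor signaling, were examined. Called higher with HGF were 9 in Detroit 562 (6.16% of all genes), 1 (DUSP6) in FaDu (0.0258%) and 0 in SCC-9 (0%). Their median log2 fold changes were 1.06, 0.79 and 0.51 in that order. With the replicate number as a block 9, 7 and 7 were called higher, against 7.13% and 2% of all genes in Detroit 562 and FaDu. In SCC-9 the blocked fit called 1.97% of all genes in either direction.

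The genes lie on separate chromosomes or far apart, except the neighbours ITGA1 and ITGA2. On GRCh38, the counted extent of ITGA1 is chr5:52787896-52959210 and that of ITGA2 is chr5:52989326-53094779, both on the plus strand. ITGA3 (chr17:50055968-50090481, plus strand), ITGAV (chr2:186590065-186680901, plus), ITGB3 (chr17:47253846-47311816, plus) and ITGB8 (chr7:20330702-20415754, plus) share that orientation. ITGA5 (chr12:54395261-54419460), ITGB1 (chr10:32900319-33005792), ITGB5 (chr3:124761948-124901418) and ITGB6 (chr2:160099666-160200313) are on the minus strand. Reads were counted over these whole extents, exons, introns and untranslated regions alike. A pair of members shares counted reads with another gene of the table on the same strand, namely ITGA1 with PELO and ITGB3 with the transcript RP11-290H9.2.

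The sequence before the start site is shown for the 4 members that were called in Detroit 562, since they moved in the same direction. It is taken from RefSeq (GRCh38.p14), reads 5′ to 3′ on the strand of the gene, and is cut where an annotated exon begins or where it crosses into the counted extent. The RefSeq start lies inside the counted extent for ITGA5, ITGA2 and ITGB1, so their printed stretches end before reaching that start. The stretch of ITGB1 lies within its counted extent and outside annotated exons. Capitals mark the motif letters GGGCGG (SP1), CCGGAA (ETS) and GGAATG (TEAD) on either strand. The stretches are chr12:54419461-54419516 (minus strand) for ITGA5, chr3:124901419-124901668 (minus) for ITGB5, chr5:52989102-52989325 (plus) for ITGA2 and chr10:32958326-32958480 (minus) for ITGB1.
ITGA5: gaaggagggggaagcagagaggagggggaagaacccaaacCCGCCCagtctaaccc
ITGB5: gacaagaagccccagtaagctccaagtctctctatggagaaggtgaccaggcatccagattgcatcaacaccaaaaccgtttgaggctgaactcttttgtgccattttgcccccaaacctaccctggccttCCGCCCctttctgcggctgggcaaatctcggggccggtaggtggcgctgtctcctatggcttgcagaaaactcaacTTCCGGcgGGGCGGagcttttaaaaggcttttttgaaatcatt
ITGA2: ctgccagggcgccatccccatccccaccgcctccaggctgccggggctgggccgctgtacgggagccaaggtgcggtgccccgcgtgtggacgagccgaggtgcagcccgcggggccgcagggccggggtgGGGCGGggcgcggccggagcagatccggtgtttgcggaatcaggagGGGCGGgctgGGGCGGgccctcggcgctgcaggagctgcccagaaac
ITGB1: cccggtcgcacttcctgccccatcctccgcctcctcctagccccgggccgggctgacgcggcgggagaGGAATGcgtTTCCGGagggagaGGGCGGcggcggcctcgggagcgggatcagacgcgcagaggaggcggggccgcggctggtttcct

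A RefSeq promoter was found for 8 of the 10 members, and the motifs were searched on both strands in the 250 bases before the start. The letters GGGCGG were present in 5 of these 8 (ITGA2, ITGA5, ITGB1, ITGB5 and ITGB8) and in 42.6% of 35116 promoters. CCGGAA was present in ITGB1 and ITGB5 and in 14.5% of all promoters, and GGAATG in ITGA5 and ITGB1 and in 11.9%. The GGAATG of ITGA5 lies in the part of these 250 bases that is not printed above. The AP-1 letters TGANTCA were in none of the 8 windows and in 6.57% of all promoters. These are matches of letters only, and no binding was measured.

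In Detroit 562, HGF raised the fibronectin receptor subunit alpha 5, the vitronectin receptor subunit beta 5, the collagen receptor subunit alpha 2, and beta 1, the partner of alpha 2 and alpha 5. Adjusted p-values come from the quasi-likelihood test of edgeR, corrected after Benjamini and Hochberg over 15475 genes. A call needed an adjusted p under 0.1 and a log2 fold change of 0.4 or more in size. By this rule 4 of the 9 tested members were higher with HGF and 0 were lower. Over all genes 6.16% were called higher, 11.7% lower and 17.9% in either direction. The median log2 fold change was 0.34 over the members and -0.01 over all genes. Below the minimum of 0.4, ITGA1, ITGA3 and ITGAV also had an adjusted p below 0.1, which makes 7 of 9 members against 34.1% of all genes. The reads counted for ITGA1 lie mostly inside the extent of PELO, and outside PELO its adjusted p was 0.184 by edgeR. The fit with the replicate block called the same 4 members, with 7.13% of all genes higher and 21.5% in either direction.

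ITGA5 had the largest change of the members. Its level was 22.0, 22.0 and 31.5 CPM in the control libraries and 46.5, 43.7 and 68.3 CPM in the HGF libraries of Detroit 562. All HGF libraries lay above all control libraries, and replicate 3 was the highest in both groups. The log2 fold change was 1.07 (SE 0.20, n = 3 per group, adjusted p = 0.00226 by edgeR), or 2.10-fold, and the same-numbered pairs gave 1.08, 0.99 and 1.12. The call was kept without any 1 of the 6 libraries.

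ITGB5, the beta subunit of the alpha v beta 5 vitronectin receptor, stood at 45.9, 50.9 and 68.7 CPM in control and 90.0, 82.3 and 97.4 CPM in HGF-treated Detroit 562. The groups did not overlap, and the log2 fold change was 0.70 (SE 0.15, adjusted p = 0.00426 by edgeR). This call was also kept without any 1 of the 6 libraries.

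ITGA2, the alpha subunit of the collagen receptor alpha 2 beta 1, stood at 185, 190 and 282 CPM in control and 259, 278 and 485 CPM in HGF-treated Detroit 562. The groups overlapped, because control replicate 3 exceeded HGF replicates 1 and 2, while each HGF library exceeded the control of its own number. The log2 fold change was 0.64 (SE 0.22, adjusted p = 0.0446 by edgeR). It was 0.29 (adjusted p = 0.313) without HGF replicate 3. It was 0.53 (adjusted p = 0.182) without control replicate 1 and 0.54 (adjusted p = 0.159) without control replicate 2. The call of the fit without the block therefore rests on these libraries. With the replicate block the log2 fold change was 0.61 (adjusted p = 2.00e-05 by edgeR), and the same-numbered pairs gave 0.48, 0.55 and 0.78.

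ITGB1, the partner shared by the collagen, fibronectin and laminin receptors, stood at 585, 631 and 818 CPM in control and 812, 914 and 1129 CPM in HGF-treated Detroit 562. HGF replicate 1 lay just below control replicate 3, and otherwise the HGF libraries were higher. The log2 fold change was 0.49 (SE 0.12, adjusted p = 0.00978 by edgeR). It fell below the minimum of 0.4 without HGF replicate 3 (0.35) and without control replicate 1 (0.39), with an adjusted p that stayed below 0.1.

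ITGA3 and ITGAV were below the minimum size in this line. ITGA3, from the laminin receptor alpha 3 beta 1, stood at 711, 732 and 829 CPM in control and 1068, 946 and 861 CPM with HGF, with no overlap and a log2 fold change of 0.34 (SE 0.11, adjusted p = 0.0296 by edgeR). It was called without control replicate 3 or without HGF replicate 3, at 0.41 in each case. ITGAV, the partner of all the other beta subunits, had a fold change of the opposite sign to its partner ITGB5. It stood at 99.7, 97.3 and 105 CPM in control and 77.9, 85.0 and 92.8 CPM with HGF, with every HGF library below every control and a log2 fold change of -0.24 (SE 0.08, adjusted p = 0.0384 by edgeR).

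The TGF-beta binding partners of alpha v gave no call in Detroit 562. ITGB6 stood at 78.3, 80.2 and 113 CPM in control and 88.6, 86.1 and 93.7 CPM with HGF, a log2 fold change of -0.02 (SE 0.18, adjusted p = 0.956 by edgeR) whose sign turned when single libraries were left out. ITGB8 stood at 24.4, 23.9 and 31.9 CPM in control and 19.3, 22.3 and 27.96 CPM with HGF. Each HGF library was below its numbered control, but the groups overlapped, and the log2 fold change was -0.21 (SE 0.15, adjusted p = 0.312 by edgeR). With the replicate block its adjusted p was 0.0175 at the same size.

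**Figure D1:**
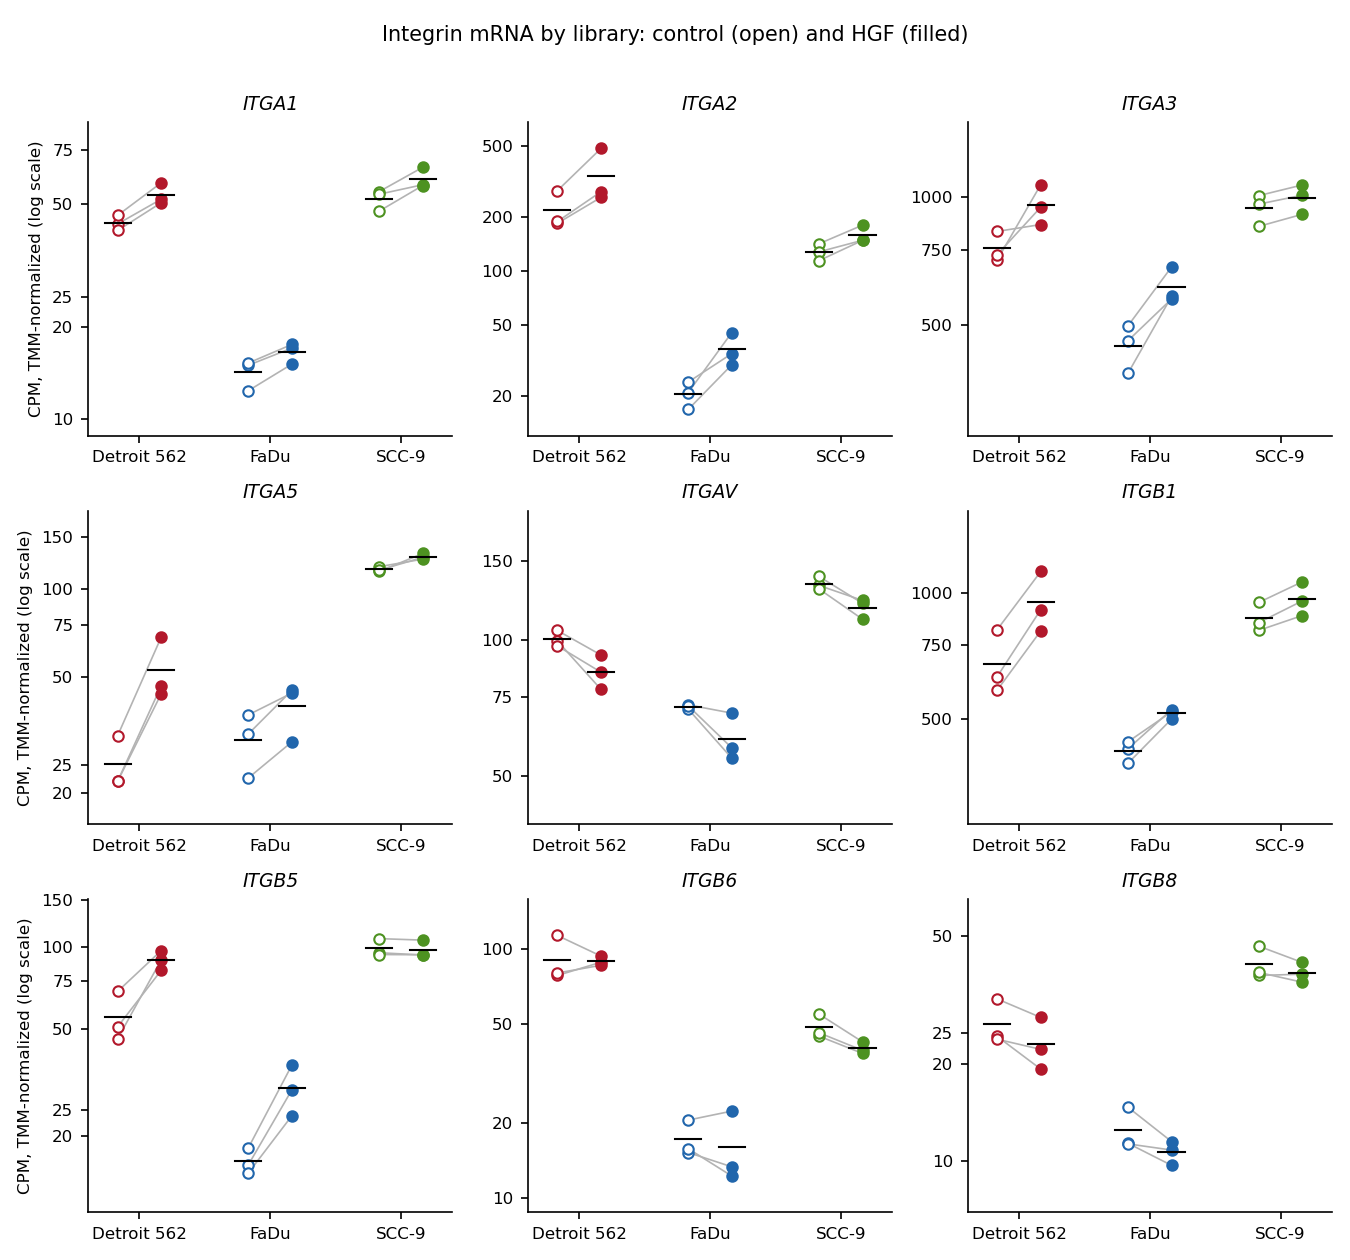
CPM after TMM normalization on a log axis for the 9 tested integrin genes in the 18 libraries, with open points for control, filled points for HGF, grey lines between libraries of the same replicate number and black bars for group means. ITGA5 rises from 22.0 to 31.5 CPM in control to 43.7 to 68.3 CPM with HGF in Detroit 562, and ITGAV lies lower with HGF in each of the 9 pairs.

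In FaDu, ITGB5 was the only called member and ITGA2 had a change of like size. ITGB5 stood at 15.7, 14.7 and 18.2 CPM in control and 29.8, 23.9 and 36.8 CPM with HGF. The groups did not overlap, and the log2 fold change was 0.90 (SE 0.15, adjusted p = 0.0921 by edgeR). Just 4 genes of 15475, or 0.0258%, were called in this line. The call of ITGB5 was lost without control replicate 1 (adjusted p = 0.597), control replicate 2 (0.259), HGF replicate 1 (0.307) or HGF replicate 3 (0.318), at log2 fold changes of 0.74 to 0.91.

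ITGA2 stood at 16.9, 24.0 and 21.0 CPM in control and 30.0, 34.6 and 45.4 CPM in HGF-treated FaDu. All HGF libraries lay above all controls, and the log2 fold change was 0.83 (SE 0.23), with an adjusted p of 0.448 by edgeR. ITGA3 stood at 386, 460 and 498 CPM in control and 584, 576 and 685 CPM with HGF, again without overlap, at 0.46 (SE 0.11, adjusted p = 0.354 by edgeR). With the replicate block, 3 members were called higher, namely ITGB5 (adjusted p = 2.98e-05), ITGA2 (7.47e-05) and ITGA3 (0.00138). The blocked fit called 5.6% of all genes in FaDu and 2% higher.

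The alpha 5 subunit was not called in FaDu. ITGA5 stood at 22.6, 37.1 and 31.9 CPM in control and 30.0, 44.0 and 45.0 CPM with HGF, so the groups overlapped although each HGF library exceeded its numbered control. The log2 fold change was 0.38 (SE 0.20, adjusted p = 0.636 by edgeR). With the replicate block the adjusted p was 0.000515, but the fold change was under the minimum of 0.4. ITGB1 (390, 423 and 440 against 498, 525 and 519 CPM) was at 0.30 (SE 0.12) and ITGAV (70.4, 72.0 and 71.6 against 54.8, 69.0 and 57.7 CPM) at -0.24 (SE 0.08). Neither pair of groups overlapped, and neither gene passed the test without the block.

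In SCC-9, 0 members were called by edgeR, with or without the block, and 0% of all genes were called without it and 1.97% with it. At an unadjusted p below 0.05 there were 2 members, ITGA1 and ITGAV, against 4.14% of all genes, and the count of ITGA1 outside PELO did not pass that limit. By the adjusted p alone the blocked fit passed 3 members in SCC-9 (5.29% of all genes), 8 in FaDu (17.4%) and 8 in Detroit 562 (53.6%). ITGA5 stood at 115, 119 and 116 CPM in control and at 132, 126 and 128 CPM with HGF. The HGF libraries lay above the controls, but the log2 fold change was 0.15 (SE 0.19, adjusted p = 1 by edgeR). ITGB5 stood at 108, 95.6 and 94.1 CPM in control and 106, 93.8 and 93.9 CPM with HGF, a log2 fold change of -0.02 (SE 0.15), with each HGF library below its numbered control by at most 0.03 on the log2 scale.

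ITGA2 in SCC-9 stood at 142, 128 and 115 CPM in control and 181, 149 and 149 CPM with HGF, at 0.31 (SE 0.22) on the log2 scale. ITGAV stood at 132, 130 and 139 CPM in control and 123, 111 and 121 CPM with HGF, at -0.18 (SE 0.08), and ITGB6 at 44.7, 46.1 and 54.8 against 38.1, 39.2 and 42.4 CPM, at -0.28 (SE 0.19). For both, all HGF libraries were below all controls. ITGB1 (951, 815 and 850 against 1066, 884 and 959 CPM) was at 0.15 (SE 0.12) and ITGA3 at 0.08 (SE 0.11), with overlapping groups.

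The direction of several members was shared by all pairs of same-numbered libraries. How many of all genes share a direction in this way was not counted, so this is a description only. ITGA2, ITGA3, ITGA5 and ITGB1 were higher with HGF in all 9 pairs, and so was ITGA1, whose reads lie mostly inside PELO. ITGAV was lower in all 9 pairs, and its HGF libraries did not overlap its controls in any of the 3 lines. Over all genes, every HGF library lay below every control for 20.1% in Detroit 562, 9.12% in SCC-9 and 5.36% in FaDu. Every HGF library lay above every control for 4 members in Detroit 562 (18.1% of all genes), 4 in FaDu (4.05%) and 3 in SCC-9 (8.3%). ITGA1 is among those counted in Detroit 562 and SCC-9, but outside PELO its groups overlapped in both lines. In FaDu the groups of ITGA1 overlapped by the whole count and did not overlap outside PELO. In the mean HGF effect over the 3 lines, ITGA2 (0.59, SE 0.13, adjusted p = 0.00785), ITGA5 (0.53, SE 0.11, adjusted p = 0.0071) and ITGB5 (0.53, SE 0.09, adjusted p = 0.00252) were called by edgeR, against 6.89% of all genes called and 2.02% called higher. These 3 calls were kept without any 1 of the 18 libraries. A call of the mean does not show an effect in each line. In Detroit 562, FaDu and SCC-9, ITGB5 was at 0.70, 0.90 and -0.02, ITGA5 at 1.07, 0.38 and 0.15 and ITGA2 at 0.64, 0.83 and 0.31. ITGAV was at -0.22 (SE 0.05, adjusted p = 0.00721) and ITGB1 at 0.31 (SE 0.07, adjusted p = 0.00897), below the minimum size.

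**Figure D2:**
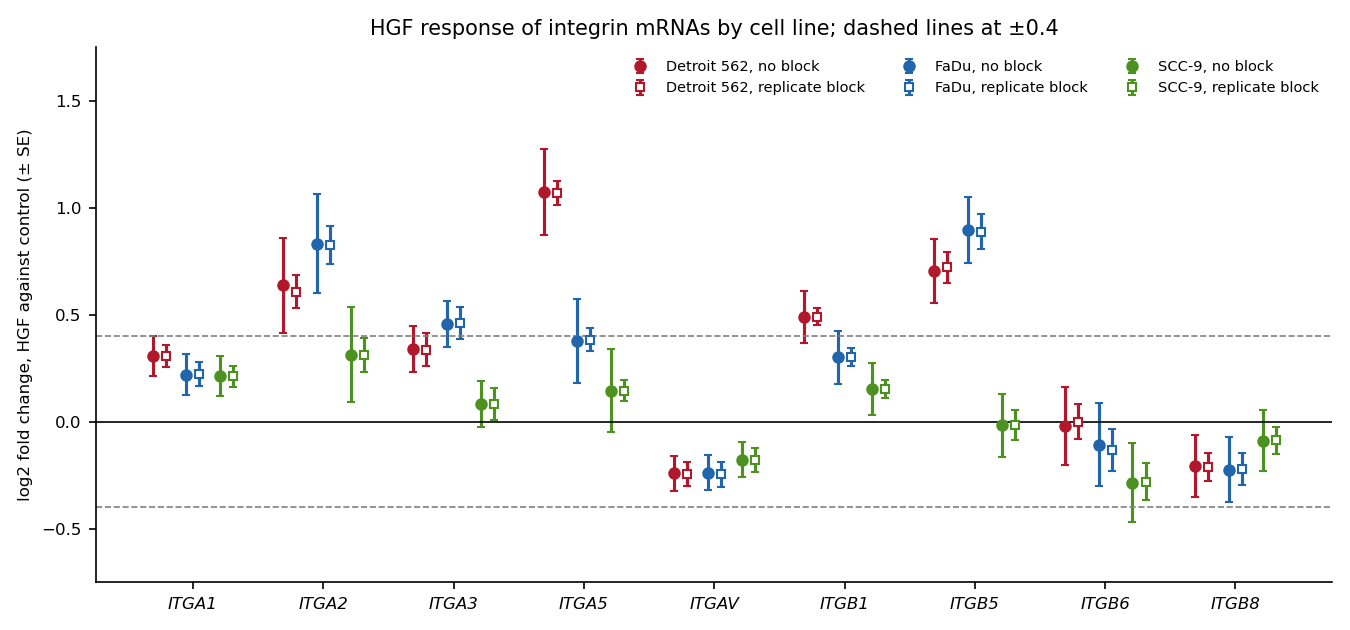
Log2 fold change of HGF against control with its SE for 9 integrin genes in each line, as filled circles from the fit without a block and open squares from the fit with the replicate block. ITGA5 in Detroit 562 (1.07) and ITGB5 in FaDu (0.90) and Detroit 562 (0.70) lie high, with ITGA2 in FaDu (0.83) between the last 2, ITGB5 in SCC-9 lies at -0.02, and the blocked SEs are smaller.

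Whether the lines differed in their response was tested with the difference of the HGF effects. By edgeR without the block, 0 of 9 members passed an adjusted p below 0.1 between any 2 lines, while 0.239% of all genes did for Detroit 562 against FaDu, 0.924% for Detroit 562 against SCC-9 and 0% for FaDu against SCC-9. At an unadjusted p below 0.05 the members numbered 1, 2 and 2 in that order, against 11.6%, 15.4% and 2.18% of all genes. The response of ITGA5 was larger in Detroit 562 than in SCC-9 by 0.93 (SE 0.28, adjusted p = 0.161) and than in FaDu by 0.69 (SE 0.28, adjusted p = 0.369). That of ITGB5 was larger than in SCC-9 by 0.72 in Detroit 562 (SE 0.21, adjusted p = 0.151) and by 0.91 in FaDu (SE 0.21, adjusted p = 1).

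With the replicate block these differences passed. ITGA5 differed between Detroit 562 and SCC-9 by 0.92 (adjusted p = 8.54e-06) and between Detroit 562 and FaDu by 0.68 (adjusted p = 0.000165). ITGB5 differed from SCC-9 by 0.74 in Detroit 562 (adjusted p = 0.000288) and by 0.90 in FaDu (adjusted p = 0.00218). ITGB1 (0.34, adjusted p = 0.00131) and ITGA2 (0.29, adjusted p = 0.0733) were also larger in Detroit 562 than in SCC-9, ITGB1 larger than in FaDu (0.19, adjusted p = 0.0468), and ITGA2 larger in FaDu than in SCC-9 (0.51, adjusted p = 0.0664). The blocked fit called 4 members for Detroit 562 against SCC-9, 2 for Detroit 562 against FaDu and 2 for FaDu against SCC-9, against 26.9%, 19.1% and 1.32% of all genes. Without control replicate 3 of Detroit 562, the unblocked fit called 3 members for Detroit 562 against SCC-9. The share of all genes called in that fit is not given here.

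By the whole counts, untreated lines differed in integrin mRNA by up to 3.41 on the log2 scale, while the largest HGF effect was 1.07. Outside PELO, ITGA1 differed by -3.89 between untreated FaDu and SCC-9. FaDu had the lowest level of 8 of the 9 members, and SCC-9 the highest of 7. Against SCC-9, untreated FaDu was lower in 9 of 9 members by log2 fold changes of -0.91 (ITGAV) to -2.64 (ITGA2), each called by edgeR, and 64.2% of all genes were called. Against untreated FaDu, Detroit 562 was higher in 8 of 9 members, from 0.50 for ITGAV to 3.41 for ITGA2 (SE 0.25, adjusted p = 1.79e-09), with 61% of all genes called. Since so large a share of all genes was called, these counts are no result about the integrins, and the levels are given by gene.

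By the whole counts of the members, ITGA2 had the widest range of group means. It averaged 219 ± 54.7 CPM (SD, n = 3) in untreated Detroit 562, 128 ± 13.9 CPM in SCC-9 and 20.6 ± 3.58 CPM in FaDu, and these groups did not overlap. ITGB6, the epithelial partner of alpha v, had the same order, with 90.6 ± 19.7 CPM in Detroit 562, 48.6 ± 5.48 CPM in SCC-9 and 17.2 ± 2.93 CPM in FaDu. These were the 2 members called higher in Detroit 562 than in SCC-9, at 0.77 (SE 0.22, adjusted p = 0.00484) and 0.90 (SE 0.18, adjusted p = 0.000297).

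ITGA5 was ordered otherwise. It averaged 116 ± 2.28 CPM in untreated SCC-9, 30.5 ± 7.36 CPM in FaDu and 25.1 ± 5.47 CPM in Detroit 562, and the last 2 overlapped (log2 difference -0.28, SE 0.20, adjusted p = 0.216 by edgeR). With HGF, ITGA5 in Detroit 562 reached 52.9 ± 13.4 CPM, still below every SCC-9 library. ITGB5 was at 99.2 ± 7.50 CPM in untreated SCC-9, 55.2 ± 12.01 CPM in Detroit 562 and 16.2 ± 1.80 CPM in FaDu, and with HGF at 89.9 ± 7.55 CPM in Detroit 562, next to 98.0 ± 7.25 CPM in SCC-9. The 4 members called lower in untreated Detroit 562 than in SCC-9 were ITGA5 (-2.21), ITGB5 (-0.85), ITGB8 (-0.61) and ITGAV (-0.41), with 65.4% of all genes called.

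Levels of different genes were compared per length, as CPM per kilobase of exon (RPKM), with the exons of all transcripts of a gene merged. In untreated Detroit 562 the order was ITGA3 (77.2 RPKM), ITGB1 (53.0), ITGA2 (27.7), ITGB6 (15.7), ITGB5 (8.47), ITGAV (5.22), ITGA5 (3.40) and ITGB8 (1.77). ITGA3 and ITGB1 led in all 3 lines. Their order rests on the length used, since with the canonical transcript alone ITGB1 was at 182 RPKM and ITGA3 at 155 RPKM, and the control libraries of both genes then overlap. The order of ITGB5 and ITGAV in untreated Detroit 562 rests on it too. With the canonical transcript ITGAV was at 14.3 RPKM and ITGB5 at 12.4 RPKM.

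**Figure D3:**
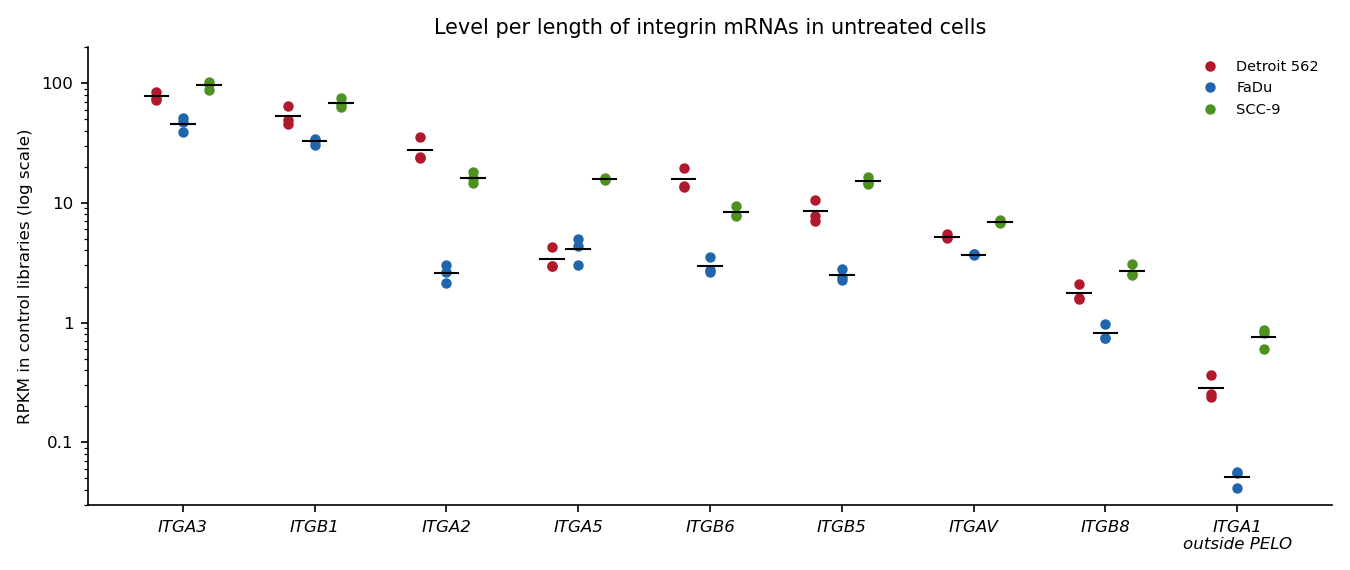
RPKM (log axis) of 8 integrin genes, and of ITGA1 outside the extent of PELO, in the 3 control libraries of each line, with black bars for the means. ITGA3 and ITGB1 lie highest in every line, ITGA1 outside PELO lies below 1 RPKM, and FaDu is lowest for all but ITGA5.

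Among the beta partners of alpha v other than beta 1, ITGB5 took a larger share with HGF in all 9 pairs. In Detroit 562, ITGB5 made up 32.7 ± 0.927% (SD, n = 3) of the summed RPKM of ITGB3, ITGB5, ITGB6 and ITGB8 in control and 44.8 ± 1.04% with HGF, and ITGB6 60.4 ± 0.738% and 50.3 ± 1.12%. In FaDu, ITGB5 went from 39.5 ± 4.59% to 57.1 ± 11.3% and ITGB6 from 47.1 ± 6.31% to 34.1 ± 11.4%. In SCC-9, ITGB5 already made up 57.8 ± 4.09% in control and 61.3 ± 2.54% with HGF. The share of ITGB6 was lower with HGF in all 9 pairs. In SCC-9 the level of ITGB5 itself was slightly lower with HGF in all 3 pairs, as was that of ITGB6.

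The share of ITGB8 in Detroit 562 was 6.86 ± 0.368% in control and 4.95 ± 0.705% with HGF. FaDu had 13.1 ± 1.77% in control and 8.69 ± 0.192% with HGF, and SCC-9 had 10.2 ± 1.05% and 10.4 ± 0.706%. The exact two-sided permutation test of 3 against 3 libraries cannot go below p = 0.1, and this value was reached for ITGB5 and ITGB8 in Detroit 562 and FaDu and for ITGB6 in Detroit 562. After Benjamini-Hochberg adjustment over the 24 shares tested no p was below 0.24. With canonical transcript lengths the share of ITGB5 went from 35.5% to 48.0% in Detroit 562, a difference of like size, but ITGB6 with HGF was then at 45.8%, so the order of ITGB5 and ITGB6 in HGF-treated Detroit 562 rests on the length used. The shares are of mRNA, and the beta subunits at the membrane were not measured.

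**Figure D4:**
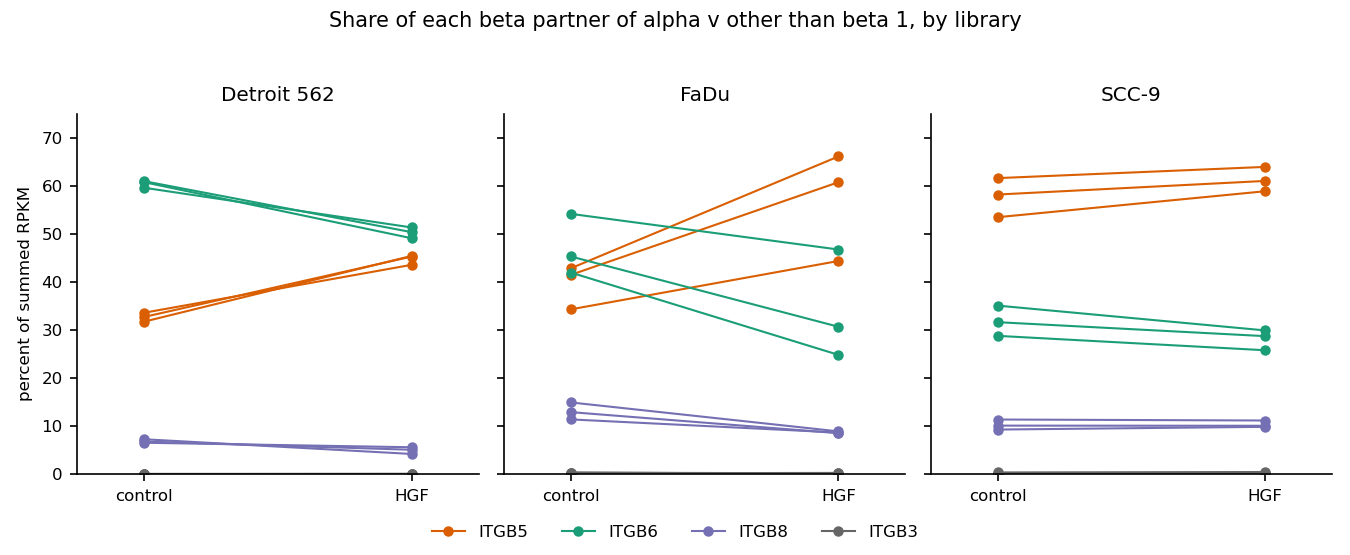
Share of each beta subunit in the summed RPKM of ITGB3, ITGB5, ITGB6 and ITGB8 (percent, from 0) in control and HGF libraries of each line, with lines between libraries of the same replicate number. ITGB5 goes up and ITGB6 down in every pair, ITGB6 stays above ITGB5 in Detroit 562 with these merged exon lengths, ITGB5 leads in SCC-9, and ITGB3 lies near 0.

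Among the alpha subunits that pair with beta 1 alone, ITGA3 dominated. Its share of the summed RPKM of ITGA2, ITGA3, ITGA5 and the part of ITGA1 outside PELO was 71.4 ± 3.16% in untreated Detroit 562, 87.1 ± 1.61% in FaDu and 74.5 ± 0.559% in SCC-9. ITGA5 went from 3.11 ± 0.262% to 4.79 ± 0.894% with HGF in Detroit 562, from 7.82 ± 1.18% to 7.36 ± 1.30% in FaDu and from 12.3 ± 0.999% to 12.5 ± 0.775% in SCC-9. ITGA2 was at 25.3 ± 2.87% in control and 28.8 ± 8.75% with HGF in Detroit 562, a spread set by HGF replicate 3 at 38.7%. Even with HGF, ITGA5 was the smallest of ITGA2, ITGA3 and ITGA5 by this measure in Detroit 562.

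ITGB3, the beta subunit of alpha v beta 3, was barely counted. The control libraries of Detroit 562 held 2, 1 and 0 reads and each HGF library 2. In FaDu the controls held 4, 2 and 4 reads and the HGF libraries 1, 4 and 3. In SCC-9 the controls held 19, 5 and 5 reads and the HGF libraries 23, 10 and 3, so replicate 1 was the highest in both groups. These are the whole counts, and part of them may be reads of RP11-290H9.2, which overlaps ITGB3 and had 8 to 31 counts per library. ITGB3 made up no more than 0.441% of the beta partners in any library.

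The reads counted for ITGA1, the alpha subunit of the collagen receptor alpha 1 beta 1, lay mostly inside the extent of another gene. PELO, a ribosome rescue factor, lies within the extent of ITGA1 on the same strand at chr5:52787940-52804046. Its own count equalled 68.0% to 93.9% of the count of ITGA1 over the 18 libraries. In control replicate 1, ITGA1 had 1832 counts in Detroit 562, of which 195 remained after subtraction of PELO. In FaDu 43 of 632 remained, and in SCC-9 657 of 2300. Counts over whole extents cannot assign a read inside PELO to 1 of the genes. Of the 18545 merged exon bases of ITGA1, 18070 lie outside PELO, so the subtraction can also remove reads of ITGA1 itself. It was chosen after the data were seen.

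Outside PELO, ITGA1 was at 4.60, 4.35 and 6.60 CPM in control and 5.54, 6.56 and 7.82 CPM with HGF in Detroit 562, at 0.36 on the log2 scale (SE 0.19, adjusted p = 0.184 by edgeR). FaDu stood at 1.02, 0.753 and 1.01 against 1.18, 1.33 and 1.55 CPM, at 0.54 (SE 0.25, adjusted p = 0.609), and with the replicate block it was called (adjusted p = 0.0622). SCC-9 stood at 15.7, 14.8 and 10.9 against 21.1, 17.3 and 15.2 CPM, at 0.37 (SE 0.18, adjusted p = 1). In the mean over the lines it was called at 0.42 (SE 0.12, adjusted p = 0.0239), where the whole count gave 0.25. That call was kept without 11 of the 18 libraries taken singly. It was lost, at log2 fold changes no lower than 0.38, without control replicate 1, control replicate 2 or HGF replicate 3 of Detroit 562, control replicate 2 or HGF replicate 3 of FaDu, or control replicate 3 or HGF replicate 1 of SCC-9. The lines differed more in ITGA1 without PELO, with untreated FaDu lower than SCC-9 by -3.89 (SE 0.22) in place of -1.87 (SE 0.10) on the log2 scale.

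**Figure D5:**
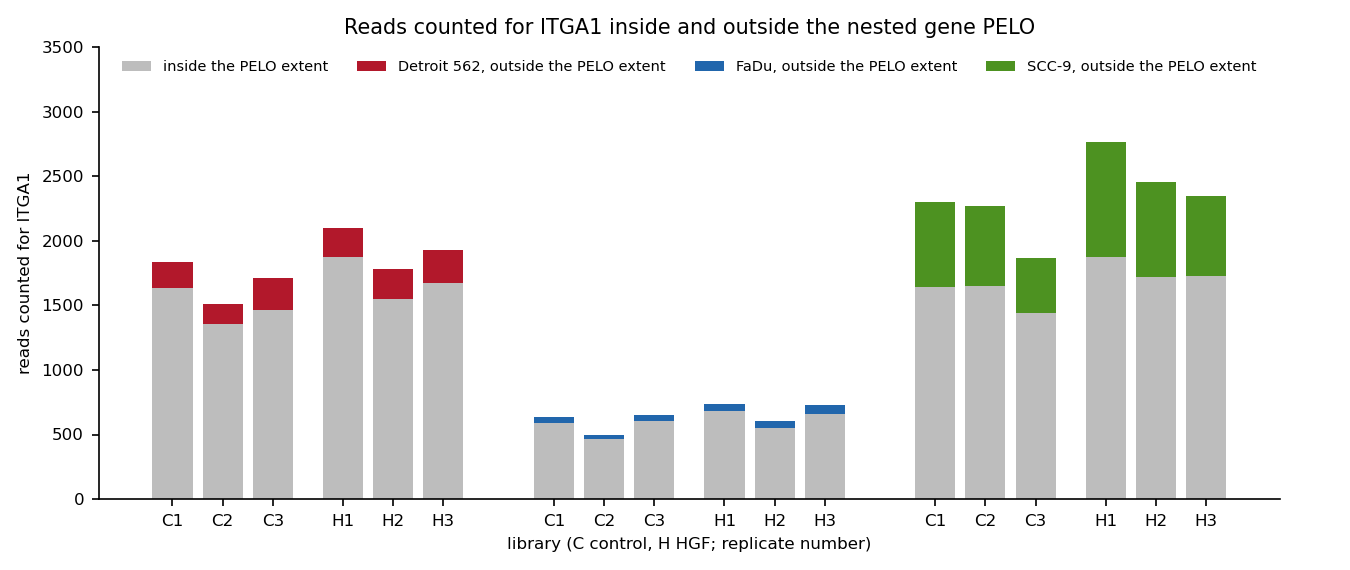
Reads counted for ITGA1 in each library, split into those inside the extent of the nested gene PELO (grey) and those outside it (color), with C for control and H for HGF. The part outside PELO is a narrow band in Detroit 562 and FaDu and 427 to 884 reads in SCC-9.

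Among the other integrin subunits, 16 in all, 12 passed the filter. In Detroit 562, 1 was called higher (6.16% of all genes) and 1 lower (11.7%). ITGA6, the laminin receptor subunit of hemidesmosomes and of alpha 6 beta 1, averaged 755 ± 231 CPM in control and 1202 ± 289 CPM with HGF, at 0.67 (SE 0.18, adjusted p = 0.0144 by edgeR). Its partner ITGB4 was at 822 ± 37.1 and 843 ± 49.6 CPM, at 0.04 (SE 0.10). ITGA2B was called lower at -1.27 (SE 0.46, adjusted p = 0.0537) from 4 to 25 counts per library. In FaDu, ITGA6 was at 0.54 (SE 0.18, adjusted p = 0.529) and was called with the block (adjusted p = 4.14e-05), and in SCC-9 it was at 0.25 (SE 0.18).

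ITGAE had log2 fold changes of 0.00, -0.01 and -0.03 in Detroit 562, FaDu and SCC-9, each with an SE of 0.08. ITGA4 reached 15.1 ± 3.04 CPM in untreated SCC-9 and had at most 5 counts in any library of the other lines. ITGB2, the beta subunit of leukocyte integrins, was between 1.11 and 7.19 CPM in the group means. ITGA7, ITGA9, ITGA10, ITGAM, ITGAX and ITGB7 had group means below 4 CPM, and none of the 6 was called in any HGF comparison. ITGA8, ITGA11, ITGAD and ITGAL did not pass the filter.

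The matrix ligands of these receptors moved in both directions in Detroit 562, with 6 of 23 tested genes called higher (6.16% of all genes) and 6 lower (11.7%). TNC, the matrix protein tenascin C, was among the higher at 0.92 (SE 0.18). The fibrillar collagen chains were among the lower, with COL5A2 at -1.09 (SE 0.23, adjusted p = 0.00403) and COL1A2 at -1.04 (SE 0.37). COL1A1 is also one of the fibroblast markers whose sum was lower with HGF in this line.

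Fibronectin itself was not called in any line. FN1 averaged 24.7 ± 4.01 CPM in control and 20.1 ± 5.04 CPM with HGF in Detroit 562, at -0.30 (SE 0.26, adjusted p = 0.429 by edgeR). It stood at 8.80 ± 3.08 and 10.95 ± 4.37 CPM in FaDu and at 6951 ± 838 and 6987 ± 829 CPM in SCC-9. SCC-9 was the line with the highest level of both ITGA5 and FN1. VTN, which encodes vitronectin, did not pass the filter, with group means of at most 0.0658 CPM. No ligand was called in FaDu or SCC-9 without the block. With it 5 of 23 were called in FaDu, where 5.6% of all genes were. In SCC-9 it called 1, TGFB2 (-0.50, adjusted p = 0.00258), and 1.97% of all genes.

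Of the 20 activators and linkers of integrins, 4 were called higher (6.16% of all genes) and 3 lower (11.7%) in Detroit 562. FERMT1, the epithelial kindlin that binds beta tails, went from 115 ± 30.1 to 227 ± 88.8 CPM (0.99, SE 0.20, adjusted p = 0.00312 by edgeR), and TNS4 was at 0.66 (SE 0.12). LIMS2 was lower at -1.45 (SE 0.42), from group means of 0.381 and 0.140 CPM, and TNS3 was lower at -0.71 (SE 0.19). TNS3 and TNS4 both encode tensins, which bind beta tails, and they moved in opposite directions. TLN1, the main talin, was not called in Detroit 562 (0.06, SE 0.08), FaDu (0.04, SE 0.07) or SCC-9 (0.10, SE 0.07). It averaged 4603 ± 265 CPM in untreated SCC-9, against 203 ± 2.23 CPM in FaDu and 86.4 ± 5.82 CPM in Detroit 562. The reason for this level was not tested, so what the SCC-9 value measures is uncertain.

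Of 14 tested adhesion signaling genes, 2 were called higher (6.16% of all genes) and 1 lower (11.7%) in Detroit 562. In either direction 17.9% of all genes were called there. BCAR1 (0.57, SE 0.14) encodes the scaffold p130Cas, PAK1 (0.49, SE 0.11) a kinase downstream of Rac, and NEDD9 (-0.78, SE 0.21) a scaffold of the same family as BCAR1. NEDD9 was at -0.73 in FaDu and -0.71 in SCC-9, called there with the block (adjusted p = 0.00249 and 0.0473). PTK2, focal adhesion kinase, was not called in any line (0.04, 0.02 and 0.05, each with an SE of 0.06).

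Of 16 lateral partners and traffic genes, 1 was called higher (6.16% of all genes) and 4 lower (11.7%) in Detroit 562. PLAUR, the urokinase receptor, which binds integrins at the membrane, went from 12.3 ± 4.76 to 27.96 ± 8.66 CPM (1.19, SE 0.30, adjusted p = 0.0101 by edgeR). The lower genes were SNX31 (-1.24, from 13 to 57 counts per library), LGALS3 (-0.67), the tetraspanin CD9 (-0.52) and 1 further traffic gene. Without the block none of these 3 lists gave a call in FaDu or SCC-9.

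The genes most like ITGA2 across the 18 libraries, by the root mean square difference of centered log2 CPM, were FAM107B (0.23), PLCXD2 (0.30) and GPAT3 (0.31), where the median over all tested genes was 1.54. For ITGA5 they were BNIP3 (0.16), AFAP1L1 (0.20) and MAFF (0.23), where the median was 1.07. The 18 libraries come from 3 lines, so they are not independent points, and this is a description only.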

How the data were processed

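mRNA was measured in 18 libraries. Per the labels and the methods, the authors trimmed reads with Cutadapt, aligned them with STAR 2.5.2b to GRCh38.p12 with GENCODE 28 and counted them with bedtools over each gene's whole extent on its strand. The deposited values are these raw counts, without normalization, and a read in 2 overlapping genes counts for both. Totals ranged from 35304770 to 44003970 counts per library.

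The count test was edgeR 4.0.16 under R 4.3.3 (filterByExpr on the 6 groups, TMM, quasi-likelihood test, 1 mean per group over all 18 libraries). The filter left 15475 genes. The call thresholds are those of the methods, and differences of responses used the adjusted p alone. DESeq2 1.42.0 served as an alternative, and the fits were tested on simulated data. Exon lengths came from GENCODE 44 (GRCh38), matched by gene identifier for all 10 members, and intron reads are counted in the RPKM. Exact permutation tests used scipy 1.17.1.

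Replicate numbers paired the libraries. Deviations from group means were correlated across genes. For the same number they gave 0.161 to 0.454 in Detroit 562, 0.376 to 0.563 in FaDu and 0.203 to 0.332 in SCC-9 (3 pairs each). The means for different numbers, -0.227 to -0.136, follow largely from centering on the group means and are no separate evidence of pairing. The numbers come from the sample titles, and the experiment was repeated. The alternative fit held this number as a replicate block, set within the line.

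The members and lists were chosen with earlier results of these data known. Named were all members, every other tested integrin subunit and, of each further list, the called genes with at most 4 of the largest change per list and line, plus FN1, VTN, TLN1 and PTK2. PELO and RP11-290H9.2 were named as they overlap members. A gene that this rule would name is not reported here.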

Additional observations from a re-analysis of the deposited data

Results flagged for a closer look

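ITGB5 moved in opposite directions in all same-numbered pairs of 2 lines, which is why it is set apart here. All 3 pairs of Detroit 562 and all 3 pairs of FaDu were higher with HGF, and all 3 pairs of SCC-9 were lower, by at most -0.03 on the log2 scale. The difference of the responses was 0.72 between Detroit 562 and SCC-9 (adjusted p = 0.151 by edgeR without the block, 0.000288 with it) and 0.91 between FaDu and SCC-9 (adjusted p = 1 without the block, 0.00218 with it). The sign in SCC-9 turned when single libraries were left out, with a range of -0.079 to 0.050. ITGB5 was at 94.1 to 108 CPM in untreated SCC-9, above every control library of the other lines. Groups of 3 libraries were too small for a test of single libraries that stand apart.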

How the results depend on the processing

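With the replicate block, the counts of called members were 4 in Detroit 562, 3 in FaDu (1 without it) and 0 in SCC-9, and those of differing responses 2 for Detroit 562 against FaDu, 4 for Detroit 562 against SCC-9 and 2 for FaDu against SCC-9 (0 without it in each). The block changed no other count of members past both thresholds. Without a minimum fold change 7 members passed in Detroit 562 (8 with the block), 0 in SCC-9 (3 with it) and 1 in FaDu (8 with it), the block here being a setting chosen after seeing the data. The 7 include ITGA1, which outside PELO had an adjusted p of 0.184 by edgeR without the block. Leaving out 1 library at a time gave 2 to 5 calls in Detroit 562, with 2 without control replicate 1, and 0 to 2 in FaDu, with 0 without control replicate 1 or 2 or HGF replicate 1 or 3 and 2 without control replicate 3. It gave 0 to 3 differing responses for Detroit 562 against SCC-9. DESeq2 called 3 members in FaDu whether or not its prior was used. Without the prior it gave 2 differing responses for Detroit 562 against SCC-9, and an edgeR fit of the FaDu libraries alone called 0. The cause of these differences was not tested. The shares of all genes called with a library left out, by DESeq2 or in FaDu alone are not given here. These counts therefore describe the fits and are no result about the members. Signs turned for ITGB6 in Detroit 562 (0.00104 with the block and -0.11 to 0.17 with a library left out), ITGB6 in FaDu (-0.42 to 0.064), ITGB5 in SCC-9 (-0.079 to 0.050) and ITGB8 in SCC-9 (-0.14 to 0.012). The other normalizations and filters moved no count of called members by over 1.5 times, and of the values of single members under an alternative, 377 kept their side of the threshold and their direction, 13 passed it newly, 11 lost it and 10 changed sign. ITGB3 and ITGA1 in FaDu are limited by depth, with at most 23 counts and with 30 to 64 counts outside PELO.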
